A study of Mus musculus with 36 samples.

Results

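Cytoplasmic RNA of mouse embryonic fibroblasts (MEFs) at day 3 of reprogramming was compared with cytoplasmic RNA of MEFs that had not been induced. The comparison used 2 libraries of each kind, 4 of the 36 samples in the series, chosen by their sample titles. Both groups are labelled embryonic fibroblasts, and by the study's methods the MEFs came from the trunk tissue of midgestation embryos, of wild-type and of OKSM mice. Reprogrammable MEFs carried an inducible polycistronic cassette of Oct4, Klf4, Sox2 and c-Myc (OKSM) in the 3′ untranslated region of Col1a1, the M2-rtTA transactivator at Rosa26 and an EGFP reporter under Pou5f1 regulatory elements. They were kept for 3 days in medium with serum, LIF, ascorbic acid and doxycycline, and the day 3 libraries used here are the controls of an experiment that knocked down Nudt21. The methods describe MEF culture at low oxygen and give no oxygen level for the induction. The labels give no genotype for the MEF group. All fractionated MEFs expressed a GFP-tagged LSM14A protein from a lentivirus. The methods describe a hairpin vector against Nudt21 and do not say whether the day 3 controls carried a control vector. The medium, doxycycline, the cassette, any control vector and any difference in oxygen cannot be told apart in this comparison. By the study's methods, nuclei were removed from the lysate, which was then spun again at higher speed. The resuspended pellet is the fraction called cytoplasm here, taken before particles called P-bodies were sorted from it. RNA left in the supernatant of that spin was thus not sampled. The question addressed is which transcripts change in the cytoplasm early in reprogramming.

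Reprogramming to pluripotency begins with a loss of the fibroblast programme and a mesenchymal-to-epithelial transition, in which cells gain E-cadherin contacts and give up matrix and contractile genes. Proliferation rises early, a few pluripotency genes respond directly to the factors, and the endogenous network led by Nanog is known to be turned on only later. Interferon response genes are induced through transcription factors such as IRF9 that bind an element in their promoters, after nucleic acid sensors or interferon receptors are engaged.

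The MEF libraries held 31185799 and 30132600 reads assigned to genes, and the day 3 libraries 26740715 and 25987158. Expression levels are CPM, reads scaled to a common library total, after TMM scaling for differences in library composition. Scaled levels of the day 3 Nudt21 knockdown and ES cell cytoplasm libraries are set beside them with no test. The log2 difference between replicates had a standard deviation across genes of 0.137 in MEFs and 0.132 at day 3. Replicates differed by more than sampling noise, since chi-square divided by its degrees of freedom was 6.61 in MEFs and 4.98 at day 3. The study describes its sequencing replicates as biological, but the labels do not say whether the 2 libraries of a group came from separate cultures or embryos, and p-values measure only the spread between these libraries. The 10 most abundant genes took 8.44% and 7.99% of the reads in MEFs and 4.71% and 4.80% at day 3.

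The groups also differed in sex-linked transcripts. Of the 4 Y-linked genes tested, all were lower at day 3. Ddx3y, a Y-linked RNA helicase gene, stood at 171 and 189 CPM in the MEF libraries and 0 and 0.109 CPM at day 3. Eif2s3y, which encodes a translation initiation factor subunit, stood at 43.9 and 47.9 CPM in the MEF libraries and 0 and 0 CPM at day 3. Xist, the RNA that coats the inactive X chromosome, stood at 0.034 and 0 CPM in the MEF libraries and 25.1 and 20.6 CPM at day 3. The day 3 Nudt21 knockdown libraries held 46.9 and 45.2 CPM of Xist. MEF libraries thus carried Y-linked RNA without Xist and day 3 libraries the reverse, so the groups came from different embryos, and reprogramming and the embryos of origin cannot be told apart. Among genes with a mean of at least 10 CPM, the median log2 fold change was 0.04 over 9399 autosomal genes and −0.03 over 305 genes of the X chromosome.

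Of 16108 genes tested, 5724 were higher (35.5% of those tested) and 5433 lower (33.7%) at day 3 at an adjusted p under 0.05. Together 69.3% of the genes were called, and the median log2 fold change was 0.04. A change of at least 2-fold, a rule added after the data were seen, left 2461 genes higher (15.3%) and 2712 lower (16.8%). These shares are the background for every count below. Without the genes on chromosomes X and Y, also a setting added after the data were seen, 5548 genes were higher and 5236 lower. In the plot of all genes, the changes reach at least 8-fold in 911 genes that were higher and 715 that were lower.

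**Figure D1:**
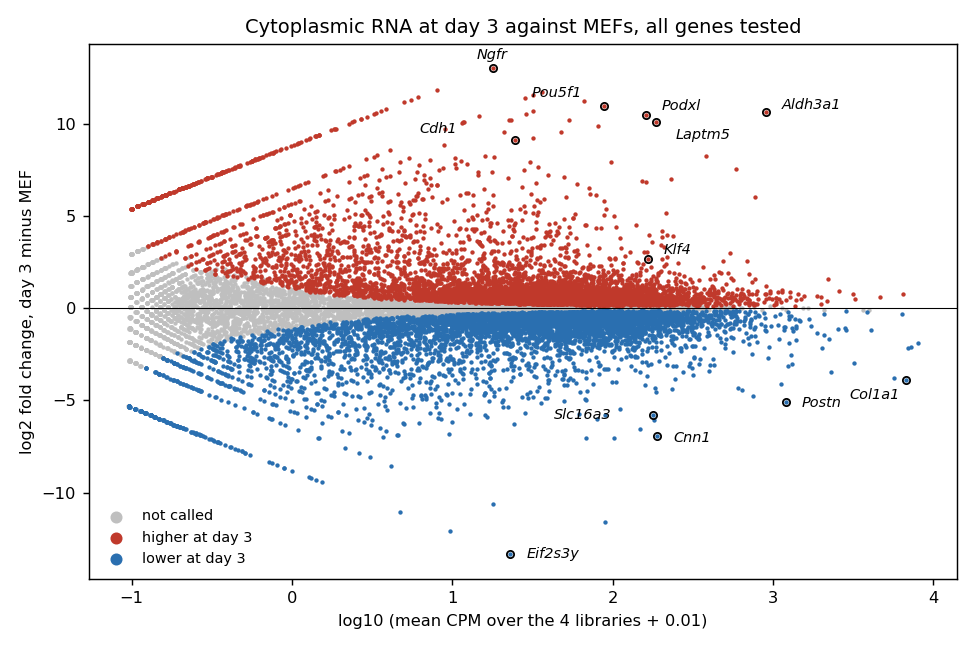
Each point is 1 of the 16108 genes tested. The horizontal axis gives the log10 of the mean CPM over the 4 libraries, plus 0.01, and the vertical axis the fitted log2 fold change of day 3 over MEF cytoplasm. Red marks the 5724 genes called higher at day 3, blue the 5433 called lower and grey the rest. Circled genes are named. Fitted values of genes with few reads in a group, such as Ngfr and Eif2s3y, depend on the prior count.

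All 4 reprogramming factors were higher at day 3. Pou5f1, which encodes the homeodomain factor Oct4, stood at 0.0681 and 0.105 CPM in the MEF libraries and 183 and 170.0 CPM at day 3 (log2 fold change 10.93 ± 0.16, adjusted p = 5.38e-17). Sox2, its high-mobility-group partner, stood at 0.0681 and 0.035 CPM in the MEF libraries and 131 and 134 CPM at day 3 (2555-fold, 95% interval 874 to 12393). Both were at 3 reads or fewer in each MEF library, so the ± value of Pou5f1 is smaller than the counting error. Klf4, a zinc finger factor that MEFs already express, rose from 48 and 43 CPM to 279.7 and 292 CPM (log2 fold change 2.65 ± 0.071, adjusted p = 2.72e-14). Myc, which drives growth and ribosome production, rose from 86.3 and 76.2 CPM to 296 and 307 CPM (log2 fold change 1.89 ± 0.069, adjusted p = 1.07e-12). In each case both day 3 libraries lay above both MEF libraries. Naive embryonic stem (ES) cells held 604 and 781 CPM of Pou5f1 and 82.6 and 149 CPM of Sox2. By GRCm38 annotation, the genes lie on chromosome 17, 35506032 to 35510777 (Pou5f1), chromosome 3, 34649995 to 34652461 (Sox2), chromosome 4, 55527137 to 55532475 (Klf4) and chromosome 15, 61985341 to 61990361 (Myc). The counts are sums over exons, so transcripts of the cassette and of the endogenous genes cannot be told apart.

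The largest increases were looked for among called genes with a mean of at least 10 CPM and groups that did not overlap, and the leading 15 in each direction are named here. Ngfr, the low-affinity neurotrophin receptor gene, had 0 reads in both MEF libraries and 33.1 and 38.6 CPM at day 3, which was at least 692-fold higher against a floor of 3 reads over the group. Trh, the precursor of thyrotropin-releasing hormone, stood at 0 and 0.035 CPM in the MEF libraries and 70.2 and 74.4 CPM at day 3 (4190-fold, 95% interval 752 to 165540). Sostdc1, a secreted antagonist of BMP and Wnt signals, stood at 0.034 and 0 CPM in the MEF libraries and 60.6 and 67.4 CPM at day 3 (3708-fold, 95% interval 665 to 146516). L1td1, an RNA-binding protein gene of pluripotent cells, stood at 0 and 0.035 CPM in the MEF libraries and 58.1 and 56.2 CPM at day 3 (3314-fold, 95% interval 594 to 130944). Each of these 4 genes had at most 1 read in a MEF library and over 30 CPM in both day 3 libraries. Aldh3a1, an aldehyde dehydrogenase gene, was the most abundant of the 15 at day 3, at 1.19 and 1.12 CPM in the MEF libraries and 1779 and 1827 CPM at day 3 (log2 fold change 10.60 ± 0.09, adjusted p = 1.84e-19). Podxl, which encodes the cell surface sialomucin podocalyxin, rose from 0.17 and 0.28 CPM to 323 and 321 CPM (log2 fold change 10.46 ± 0.13, adjusted p = 1.03e-17). Crym, a thyroid hormone binding protein gene, rose from 0.0681 and 0.105 CPM to 107 and 106 CPM (log2 fold change 10.20 ± 0.17, adjusted p = 1.86e-16). Podxl had 5 and 8 reads in the MEF libraries and Crym 2 and 3, so their ± values are smaller than the counting error. The list was completed by Sox2, Pou5f1, Tdh and Fgf4, described with their groups, and by Pitpnm3, Pllp, Adap1 and Pcsk1n, which had 1 or 2 reads over both MEF libraries and between 20.7 and 26.5 CPM (Pcsk1n) and 60.6 and 66.5 CPM (Pitpnm3) at day 3.

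Of 15 early pluripotency genes, 14 could be tested, 10 of them were higher and 3 lower. All 10 were higher by at least 2-fold. The median log2 fold change of the 14 tested genes was 4.78, or 3.91 with the 2 genes that had no read in MEFs set at their bound, against 0.04 over all genes. Alpl, the alkaline phosphatase that stains pluripotent colonies, stood at 0.579 and 0.594 CPM in the MEF libraries and 64.9 and 67.2 CPM at day 3 (log2 fold change 6.80 ± 0.15, adjusted p = 2.6e-15). Fbxo15, an Oct4 and Sox2 target used as a reporter of reprogramming, stood at 0.272 and 0.35 CPM in the MEF libraries and 15.7 and 18.3 CPM at day 3 (log2 fold change 5.76 ± 0.24, adjusted p = 5.17e-12). Tdh, the threonine dehydrogenase of mouse ES cells, stood at 0 and 0.0699 CPM in the MEF libraries and 44.9 and 45.2 CPM at day 3 (1306-fold, 95% interval 361 to 10790). Utf1 and Gdf3 had 0 reads in MEFs and were at most 1.17 CPM at day 3, at least 13.5-fold and at least 16.6-fold higher. The 3 lower members were the fucosyltransferase Fut4 (log2 fold change −1.95 ± 0.18, adjusted p = 6.94e-08) and the DNA demethylases Tet1 (log2 fold change −1.61 ± 0.13, adjusted p = 1.33e-08) and Tet2 (log2 fold change −0.67 ± 0.084, adjusted p = 2.86e-06). Naive ES libraries held more of these genes than day 3 libraries did, with 1384 and 1059 CPM of Alpl, 241 and 258 CPM of Fbxo15 and 421 and 454 CPM of Tdh.

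The late pluripotency genes summed to 83.3 and 84.7 CPM in MEFs and 116 and 122 CPM at day 3, against 6437 and 8130 CPM in naive ES cells. Of 22 listed genes, 13 reached the read minimum, 6 were higher, 4 lower and 3 not called, with a median log2 fold change of 0.59, which stayed at 0.59 with the 1 gene without MEF reads at its bound. Nanog, the factor that marks the established network, stood at 0.749 and 0.315 CPM in the MEF libraries and 0.0707 and 0.546 CPM at day 3 (log2 fold change −0.79 ± 0.8, adjusted p = 0.398). Its values overlapped between the groups, and naive ES cells held 615 and 678 CPM. Zfp42, a further ES cell marker, stood at 0.17 and 0 CPM in the MEF libraries and 0.0707 and 0.546 CPM at day 3 (log2 fold change 1.78 ± 1.2, adjusted p = 0.189). Esrrb, Dppa2, Dppa3, Dppa4, Dppa5a, Lin28a, Prdm14, Nr5a2 and Tcl1 had fewer than 10 reads over the 4 libraries. Of the 6 higher genes, 4 rose by at least 2-fold. Fgf4, a growth factor gene with an enhancer bound by Oct4 and Sox2, rose furthest, at 0 and 0.0699 CPM in the MEF libraries and 57.8 and 56.8 CPM at day 3 (1662-fold, 95% interval 459.7 to 13728). Primed ES cells held 57.7 and 59.9 CPM of Fgf4 and naive ES cells 341 and 323 CPM. Klf2, a naive state factor that MEFs express, fell from 32.9 and 33.3 CPM to 5.59 and 4.33 CPM (log2 fold change −2.74 ± 0.13, adjusted p = 4.05e-11). Of the 6 markers of pluripotent cells, Pou5f1 was higher, Nanog and Zfp42 were not called and Esrrb, Dppa5a and Lin28a could not be tested.

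**Figure D2:**
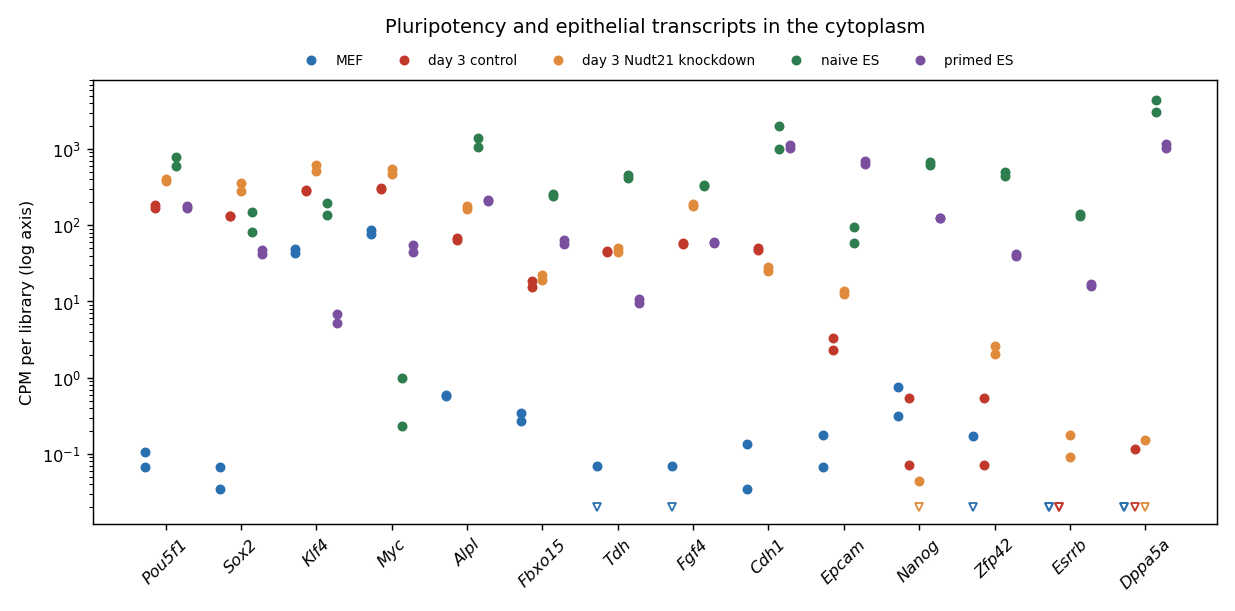
CPM per library on a log axis for 14 genes in the cytoplasm of MEFs, day 3 control cells, day 3 Nudt21 knockdown cells, naive ES cells and primed ES cells, with 2 libraries per group. Points are single libraries, and open triangles at the bottom are libraries with 0 reads. Genes under the read minimum are drawn in CPM of the library total without TMM scaling. Pou5f1 at day 3 lies at 183 and 170.0 CPM, within the range of the ES cells, whereas Nanog lies at 0.0707 and 0.546 CPM against 615 and 678 CPM in naive ES cells.

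Epithelial genes rose in part. Of 25 listed genes 19 could be tested, 12 were higher and 2 lower, and 11 of the 12 rose by at least 2-fold. The median log2 fold change was 3.22, or 2.95 with the 2 genes without MEF reads at their bound. Cdh1, which encodes E-cadherin (chromosome 8, 106603350 to 106670247), stood at 0.136 and 0.035 CPM in the MEF libraries and 47.3 and 50.9 CPM at day 3 (log2 fold change 9.08 ± 0.23, adjusted p = 1.61e-14). Epcam, an epithelial adhesion molecule, stood at 0.0681 and 0.175 CPM in the MEF libraries and 2.3 and 3.31 CPM at day 3 (log2 fold change 4.49 ± 0.51, adjusted p = 1.07e-06). The serine protease gene St14 rose from 1.06 and 0.454 CPM to 33 and 37.1 CPM (log2 fold change 5.52 ± 0.21, adjusted p = 1.85e-12) and its inhibitor Spint1 from 0.136 and 0.105 CPM to 13.6 and 13.7 CPM (log2 fold change 6.77 ± 0.28, adjusted p = 5.68e-12). Both groups were apart for each of these genes, but Cdh1 in naive ES cells was 1986 and 991 CPM and Epcam in primed ES cells 695 and 639 CPM. The MEF values of Cdh1 and Spint1 rest on few reads, so their ± values are smaller than the counting error. The tight junction genes Cldn6 and Crb3 had 0 reads in MEFs and stayed under 1 CPM at day 3. The 2 lower members were Cdh3, the gene of P-cadherin (log2 fold change −4.37 ± 0.17, adjusted p = 3.06e-12), and Esrp2, an epithelial splicing factor gene (log2 fold change −2.67 ± 0.37, adjusted p = 1.05e-05). Genes under the read minimum included Ocln, Cldn4, Esrp1, Rab25 and Ap1m2.

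The bases before the start site of Epcam are shown because its promoter holds the letters CACCTG, the E-box sequence recognised by the epithelial repressors of the SNAI and ZEB families. Capitals mark CACCTG or its reverse complement, in a RefSeq window of build GRCm38.p6 at chr17:87635729-87635978, plus strand.
Epcam: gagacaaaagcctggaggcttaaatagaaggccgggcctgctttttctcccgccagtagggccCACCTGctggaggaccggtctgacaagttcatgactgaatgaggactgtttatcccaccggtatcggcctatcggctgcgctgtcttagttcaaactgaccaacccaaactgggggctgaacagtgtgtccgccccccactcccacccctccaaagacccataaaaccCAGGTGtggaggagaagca
The 2 matches begin 187 and 19 bases before the start site. CACCTG was found on either strand in 15 of 17 promoter windows (88.2%) of 14 epithelial genes and in 20.2% of 32851 windows in the table, each 300 bases long. No test was made of this difference. The other letters searched in the epithelial windows were TGANTCA in 2 (11.8%, against 7.81% of all), GGGCGG in 12 (70.6%, against 35.7%), TATAAA in 1 (5.88%, against 13.6%), TTTCNNTTTC in 1 (5.88%, against 3.44%) and the CArG box in 0 (against 1.63%). Windows of Cdh1 and Tagln were not used here.

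Transcripts of the SNAI and ZEB repressors fell in the same libraries, and a link to the epithelial genes was not tested. Snai1 fell from 16.4 and 15.8 CPM to 2.55 and 2.29 CPM (log2 fold change −2.73 ± 0.16, adjusted p = 3.85e-10) and Snai2 from 115 and 108 CPM to 25.7 and 23.4 CPM (log2 fold change −2.18 ± 0.08, adjusted p = 1.24e-12). Zeb1 fell from 135 and 133 CPM to 51.7 and 51.7 CPM (log2 fold change −1.37 ± 0.066, adjusted p = 3.3e-11) and Zeb2 from 107 and 104 CPM to 27.9 and 26.6 CPM (log2 fold change −1.95 ± 0.075, adjusted p = 2.2e-12). Over the list of mesenchymal regulators and fibroblast markers, 23 of 24 could be tested, 16 were lower, 13 of these by at least 2-fold, and 7 higher. The median log2 fold change was −1.50. In the fit of all 20 libraries 4 of the 24 were higher. Pdgfra, a receptor for platelet-derived growth factor, fell furthest, from 41.7 and 40.2 CPM to 2.48 and 1.53 CPM (log2 fold change −4.35 ± 0.16, adjusted p = 1.46e-12). Lum, the matrix proteoglycan lumican, fell from 14.1 and 13.5 CPM to 0.813 and 0.983 CPM, and Fap, fibroblast activation protein, from 9.97 and 10.2 CPM to 0.884 and 0.583 CPM. Thy1, the surface antigen used to follow loss of fibroblast identity, fell from 58.7 and 62.1 CPM to 19.9 and 19.1 CPM (log2 fold change −1.63 ± 0.088, adjusted p = 1.33e-10). Values of Snai1, Zeb1 and Thy1 at day 3 were still above 2 CPM in each library. Among the 9 fibroblast markers, 6 were lower and Vim, Twist1 and Dcn were higher. Vim, the main intermediate filament gene, stood at 1907 and 1831 CPM in the MEF libraries and 2469 and 2471 CPM at day 3. The highest log2 fold changes in the list were those of the homeobox gene Meox2 (log2 fold change 4.73 ± 0.21, adjusted p = 1.38e-11) and the forkhead gene Foxd1 (log2 fold change 2.43 ± 0.24, adjusted p = 2.19e-07). The groups did not overlap for any gene named in this paragraph.

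Matrix genes fell almost throughout. Of 23 collagen and matrix genes 21 were lower, 18 by at least 2-fold, and the median log2 fold change was −1.91. Together they took 7.71% and 7.17% of all assigned reads in MEFs and 1.83% and 1.80% at day 3. Postn, which encodes the matrix protein periostin, fell from 2372 and 2301 CPM to 73.2 and 66 CPM (log2 fold change −5.07 ± 0.066, adjusted p = 1.39e-17). Lox, the collagen cross-linking oxidase gene, fell from 2171 and 2052 CPM to 127 and 118 CPM (log2 fold change −4.11 ± 0.061, adjusted p = 5.78e-17). Col1a1, the type I collagen gene whose 3′ end carries the cassette (chromosome 11, 94936224 to 94953042), fell from 13386 and 11929 CPM to 820.0 and 851 CPM (log2 fold change −3.92 ± 0.06, adjusted p = 7.69e-17), and its partner Col1a2 fell from 13230 and 12086 CPM to 3437 and 3339 CPM (log2 fold change −1.90 ± 0.051, adjusted p = 2.76e-14). Col1a2 thus remained at a higher level than Col1a1 in both day 3 libraries, on a scale not corrected for length. The exceptions were the basement membrane collagens Col4a1, at 1294 and 1172 CPM in the MEF libraries and 1802 and 1723 CPM at day 3 (log2 fold change 0.52 ± 0.055, adjusted p = 5.02e-07), and Col4a2 (log2 fold change 0.54 ± 0.057, adjusted p = 4.01e-07).

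Of 20 contractile and TGF-beta response genes, 18 were lower, 15 of them by at least 2-fold, with a median log2 fold change of −1.89. The CArG box, the site of serum response factor, was searched on both strands as an exact match to its consensus, so variant sites are not counted, and was found in 3 of 15 promoter windows (20%) of 14 of these genes against 1.63% of all windows, with no test made. Cnn1, the smooth muscle calponin gene, fell from 373 and 378 CPM to 3.29 and 2.8 CPM (log2 fold change −6.94 ± 0.091, adjusted p = 1.39e-17). Itga5, the fibronectin receptor subunit, fell from 799 and 737 CPM to 91.9 and 87.7 CPM (log2 fold change −3.10 ± 0.063, adjusted p = 1.3e-15). Acta2, smooth muscle actin, fell from 3451 and 3365 CPM to 1042 and 1083 CPM (log2 fold change −1.68 ± 0.049, adjusted p = 6.89e-14). The ligands also fell, Tgfb1 from 17.8 and 17.5 CPM to 2.86 and 2.37 CPM and Tgfb3 from 247 and 229 CPM to 35.6 and 39.1 CPM. Actg2, an enteric actin, was the 1 member that rose, from 267 and 259 CPM to 568 and 597 CPM (log2 fold change 1.15 ± 0.055, adjusted p = 3.27e-11). Ccn1, a matricellular gene, stood at 632 and 636 CPM in the MEF libraries and 636 and 637 CPM at day 3 and was not called (log2 fold change 0.00 ± 0.05, adjusted p = 0.946), whereas its relative Ccn2 fell from 1567 and 1492 CPM to 356 and 358 CPM (log2 fold change −2.10 ± 0.053, adjusted p = 1.27e-14).

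**Figure D3:**
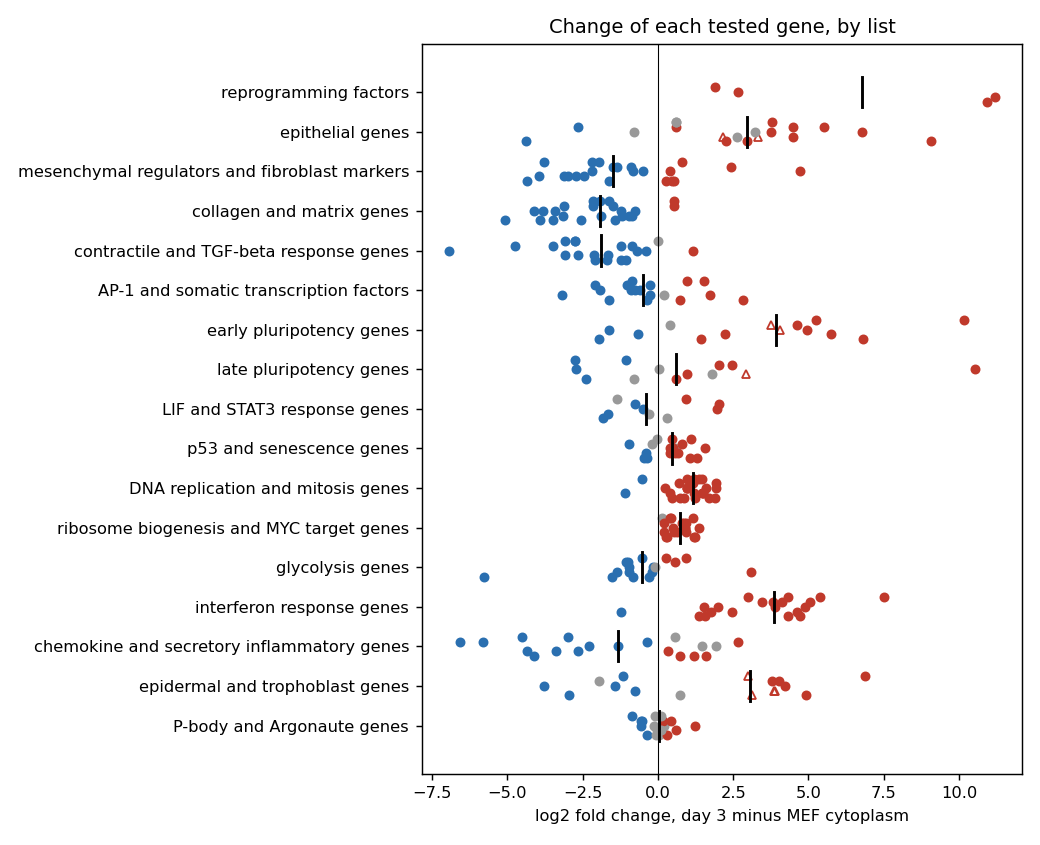
Fitted log2 fold change of day 3 over MEF cytoplasm for each tested gene of 17 lists. Red is called higher, blue called lower and grey not called, and vertical bars are list medians. Open triangles are genes with 0 reads in MEFs, drawn and counted in the median at their lower bound against 3 reads. Matrix and contractile genes lie to the left, with medians of −1.91 and −1.89, and interferon response genes to the right, with a median of 3.87.

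The interferon response list changed nearly as a whole, with 19 of 20 genes higher, all 19 by at least 2-fold, and a median log2 fold change of 3.87. Zbp1, a sensor of Z-form nucleic acid, stood at 0.817 and 0.734 CPM in the MEF libraries and 31.1 and 34.2 CPM at day 3 (log2 fold change 5.39 ± 0.17, adjusted p = 2.14e-13). Oasl2, an oligoadenylate synthetase-like gene, stood at 5.52 and 4.75 CPM in the MEF libraries and 171 and 173 CPM at day 3 (log2 fold change 5.06 ± 0.092, adjusted p = 3.41e-16). Usp18, the protease that removes the ubiquitin-like ISG15, stood at 3.64 and 3.77 CPM in the MEF libraries and 113 and 107 CPM at day 3 (log2 fold change 4.89 ± 0.1, adjusted p = 1.31e-15). Mx1, an antiviral GTPase gene, had 1 read in MEFs and stood at 3.39 and 4.48 CPM at day 3 (228-fold, 95% interval 40.5 to 9039). The signalling genes Stat2 and Irf9 rose from 29.3 and 32.9 CPM to 91 and 89.4 CPM and from 28.3 and 22.6 CPM to 78.8 and 73.3 CPM. The sensors Ddx58, the gene of RIG-I, and Ifih1 rose from 45.5 and 38.7 CPM to 112 and 104 CPM and from 7.39 and 7.58 CPM to 24.5 and 26.3 CPM. Ifit2 was the 1 lower member, from 26.1 and 24.8 CPM to 11.7 and 9.87 CPM (log2 fold change −1.24 ± 0.12, adjusted p = 1.7e-07). The summed level of the 20 genes was 233 and 219 CPM in MEFs, 1392 and 1377 CPM at day 3, 2777 and 2770 CPM in the day 3 Nudt21 knockdown libraries and 162 and 127 CPM in naive ES cells. The day 3 level was above that of MEFs and of naive ES cells in both libraries.

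Promoter bases of 3 of these genes are shown because they hold TTTCNNTTTC, the core letters of the interferon-stimulated response element, in capitals on either strand. The genes were chosen after their values were seen, and windows are from RefSeq, build GRCm38.p6, at chr4:156200819-156201068 (Isg15, minus strand), chr19:34640639-34640888 (Ifit1, plus strand) and chr19:34583279-34583528 (Ifit3, plus strand), each ending at the base before the start site.
Isg15: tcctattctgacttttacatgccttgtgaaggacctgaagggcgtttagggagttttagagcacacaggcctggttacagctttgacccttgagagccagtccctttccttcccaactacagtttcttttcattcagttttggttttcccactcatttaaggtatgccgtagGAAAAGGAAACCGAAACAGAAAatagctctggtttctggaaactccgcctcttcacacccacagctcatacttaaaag
Ifit1: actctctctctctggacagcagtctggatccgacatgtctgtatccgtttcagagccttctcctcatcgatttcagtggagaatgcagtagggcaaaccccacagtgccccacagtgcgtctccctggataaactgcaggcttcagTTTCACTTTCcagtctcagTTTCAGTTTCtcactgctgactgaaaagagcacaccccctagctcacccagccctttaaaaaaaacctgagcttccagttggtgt
Ifit3: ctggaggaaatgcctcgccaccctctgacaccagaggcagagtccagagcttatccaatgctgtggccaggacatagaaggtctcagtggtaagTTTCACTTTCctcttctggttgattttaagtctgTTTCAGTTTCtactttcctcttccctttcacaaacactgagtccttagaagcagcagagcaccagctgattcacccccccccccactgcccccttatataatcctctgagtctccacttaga
Isg15, a ubiquitin-like modifier gene, has 3 overlapping matches on the complementary strand, beginning 78, 72 and 66 bases before the start site. Ifit1, which encodes a protein that binds foreign RNA ends, has matches that begin 104 and 85 bases before it. In Ifit3, a partner of Ifit1, they begin 156 and 122 bases before it. The letters occur in 9 of 17 windows (52.9%) of 15 interferon response genes and in 3.44% of the windows in the table, with no test made. The levels of these genes rose from 4.43 and 3.88 CPM to 71.2 and 74.7 CPM (Isg15), from 7.15 and 7.93 CPM to 154 and 147 CPM (Ifit1) and from 3.1 and 2.8 CPM to 44 and 43.9 CPM (Ifit3).

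**Figure D4:**
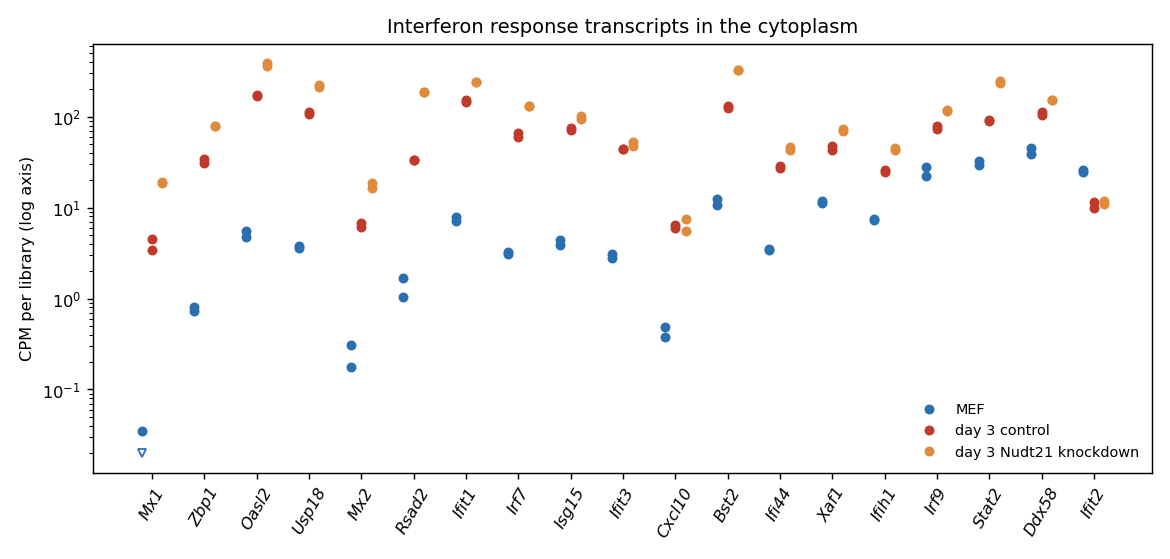
CPM per library on a log axis for 19 of the interferon response genes, ordered by log2 fold change, in the cytoplasm of MEFs, day 3 control cells and day 3 Nudt21 knockdown cells, 2 libraries each. The open triangle is a library with 0 reads. Both day 3 control libraries lie above both MEF libraries for every gene shown except Ifit2, which, at the right, lies below at 11.7 and 9.87 CPM against 26.1 and 24.8 CPM.

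Proliferation genes rose by modest factors and together. Of 28 DNA replication and mitosis genes 26 were higher, 16 of them by at least 2-fold, with a median log2 fold change of 1.15. Cdc20, an activator of the anaphase-promoting complex, rose from 92.8 and 92.8 CPM to 345 and 368 CPM (log2 fold change 1.94 ± 0.061, adjusted p = 1.98e-13). Mcm7, a subunit of the replicative helicase, rose from 83.8 and 80.9 CPM to 319.6 and 309.5 CPM (log2 fold change 1.93 ± 0.061, adjusted p = 1.93e-13), and Rrm1, a subunit of ribonucleotide reductase, from 223 and 222 CPM to 839 and 810.1 CPM (log2 fold change 1.89 ± 0.054, adjusted p = 5.85e-14). Ccne2, a G1 to S cyclin, and E2f1, a transcription factor of the same step, were lower, at −1.10 and −0.54 on the log2 scale. Of 20 ribosome biogenesis and MYC target genes 19 were higher and 0 lower, with 4 rising by at least 2-fold and a median of 0.73. The nucleolar protein gene Fbl rose from 52.1 and 54.8 CPM to 141 and 138 CPM (log2 fold change 1.38 ± 0.067, adjusted p = 3.47e-11) and Ncl from 566 and 526 CPM to 1286 and 1256 CPM (log2 fold change 1.22 ± 0.054, adjusted p = 1.11e-11). Nop58 was not called, at 219.9 and 241 CPM in the MEF libraries and 251 and 253 CPM at day 3 (log2 fold change 0.13 ± 0.061, adjusted p = 0.0733). In naive ES cells the 28 replication and mitosis genes summed to 10956 and 10076 CPM, against 5394 and 5337 CPM at day 3 and 2416 and 2366 CPM in MEFs.

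Of 18 p53 and senescence genes, 11 were higher, 4 of them by at least 2-fold, and 4 were lower, or 2 in the fit of all 20 libraries. Bbc3, which encodes the pro-apoptotic protein PUMA, rose from 15.3 and 15.7 CPM to 44 and 46.5 CPM (log2 fold change 1.55 ± 0.097, adjusted p = 7.57e-10). Trp53 itself, the gene of p53, rose from 103 and 105 CPM to 244 and 268 CPM (log2 fold change 1.30 ± 0.065, adjusted p = 4.87e-11). Cdkn1a, the p21 cell cycle inhibitor, stood at 475 and 482 CPM in the MEF libraries and 601 and 655 CPM at day 3 (log2 fold change 0.39 ± 0.056, adjusted p = 1.19e-05). Cdkn2a, the locus of p16 and Arf, stood at 2.59 and 2.62 CPM in the MEF libraries and 2.51 and 5.24 CPM at day 3, and its groups overlapped (log2 fold change 0.57 ± 0.3, adjusted p = 0.102). Cdkn2b, the neighbouring p15 gene, fell from 126 and 124 CPM to 60.4 and 69.6 CPM (log2 fold change −0.95 ± 0.075, adjusted p = 1.39e-08). The median of the list was 0.48.

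Glycolysis genes leaned the other way, with 12 of 17 lower, 4 of these by at least 2-fold, and 4 higher, at a median of −0.53. Slc16a3, the lactate exporter MCT4, fell from 362 and 339.7 CPM to 6.26 and 6.48 CPM (log2 fold change −5.78 ± 0.083, adjusted p = 3.88e-17). Ldha, lactate dehydrogenase, fell from 3777 and 3865 CPM to 1803 and 1874 CPM (log2 fold change −1.06 ± 0.047, adjusted p = 1.28e-11), and the phosphofructokinase gene Pfkl from 574 and 567 CPM to 192 and 207 CPM (log2 fold change −1.51 ± 0.058, adjusted p = 1.93e-12). Slc2a3, a neuronal and ES cell glucose transporter gene, rose from 6.23 and 6.92 CPM to 53.8 and 57.6 CPM (log2 fold change 3.08 ± 0.11, adjusted p = 7.51e-13), while naive ES cells held 3976 and 3010 CPM. Slc16a1, the transporter MCT1, also rose, from 47 and 42.6 CPM to 86.5 and 83.1 CPM (log2 fold change 0.92 ± 0.077, adjusted p = 2.54e-08).

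LIF is added to the reprogramming medium and signals through STAT3. Of 10 LIF and STAT3 response genes 3 were higher and 4 lower, with a median of −0.40. Cish, a suppressor of cytokine signalling, rose from 10.8 and 9.12 CPM to 39.7 and 38 CPM (log2 fold change 1.96 ± 0.11, adjusted p = 3.03e-10). Socs3, a direct STAT3 target, rose from 33 and 31 CPM to 58.2 and 63 CPM (log2 fold change 0.92 ± 0.084, adjusted p = 7.49e-08) and was not called with all 20 libraries in a single fit. Tfcp2l1, a STAT3 target of naive ES cells, stood at 0.511 and 0.14 CPM in the MEF libraries and 1.41 and 1.27 CPM at day 3 (log2 fold change 2.03 ± 0.56, adjusted p = 0.0045), and without MEF replicate 2 its log2 fold change was 1.36 (adjusted p = 0.0504). Il6st, the shared receptor subunit gp130, fell from 533 and 497 CPM to 171 and 153 CPM (log2 fold change −1.67 ± 0.065, adjusted p = 2.65e-12). Of 18 AP-1 and somatic transcription factor genes 12 were lower, 5 by at least 2-fold, and 5 higher, with a median of −0.48. Fosl2, an AP-1 subunit, fell from 101 and 95.5 CPM to 23.7 and 22.2 CPM (log2 fold change −2.10 ± 0.08, adjusted p = 1.92e-12) and Runx1, a runt-domain factor, from 79.5 and 80.6 CPM to 24.6 and 17.4 CPM (log2 fold change −1.93 ± 0.12, adjusted p = 5.54e-10). Fos, an immediate early gene, rose from 6.57 and 5.87 CPM to 45.6 and 42.1 CPM (log2 fold change 2.82 ± 0.12, adjusted p = 4.98e-12), and Cebpd from 37.5 and 42.8 CPM to 123 and 143 CPM (log2 fold change 1.73 ± 0.087, adjusted p = 5.74e-11).

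Of 21 chemokine and secretory inflammatory genes 19 could be tested, 11 were lower, 10 of these by at least 2-fold, and 5 higher, with a median of −1.32. Mmp3, the secreted protease stromelysin, fell from 1.97 and 2.31 CPM to 0 and 0.0364 CPM (119-fold, 95% interval 21.0 to 4746). Ptgs2, the inducible cyclooxygenase, fell from 1149 and 1157 CPM to 61.6 and 51.9 CPM (log2 fold change −4.34 ± 0.076, adjusted p = 2.31e-16). Il1rl1, the receptor of interleukin 33, fell from 179.5 and 174 CPM to 2.79 and 3.57 CPM (log2 fold change −5.80 ± 0.1, adjusted p = 2.92e-16). Il11, a cytokine of the interleukin 6 family, fell from 5.31 and 6.5 CPM to 0.248 and 0.255 CPM (log2 fold change −4.53 ± 0.33, adjusted p = 5.15e-09). The 5 higher genes included the T cell and neutrophil attractants Ccl20 (log2 fold change 2.65 ± 0.39, adjusted p = 1.58e-05) and Cxcl5 (log2 fold change 1.59 ± 0.23, adjusted p = 1.38e-05). Cxcl10, an interferon-induced chemokine counted in the interferon list, rose from 0.374 and 0.489 CPM to 5.94 and 6.45 CPM, opposite to the median of this list.

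Genes of epidermis and trophoblast were mostly detected at low levels. Of 20 listed genes 16 could be tested, 9 were higher and 5 lower, with a median of 3.92, or 3.06 with the 4 genes without MEF reads at their bound. Perp, a desmosome protein and p53 target, was by far the most abundant of the 9, from 1.91 and 3.25 CPM to 303 and 301 CPM (log2 fold change 6.87 ± 0.12, adjusted p = 3.34e-16). Ascl2, a trophoblast factor, stood at 0.0681 and 0.105 CPM in the MEF libraries and 2.69 and 2.77 CPM at day 3 (log2 fold change 4.91 ± 0.51, adjusted p = 3.53e-07). The keratin genes Krt6a and Krt14 and the surface antigen gene Ly6d had 0 reads in MEFs and less than 1 CPM at day 3, at least 14.6-fold, at least 8.67-fold and at least 14.9-fold higher. Krt7, a simple epithelial keratin, fell from 7.8 and 10.6 CPM to 0.636 and 0.692 CPM (log2 fold change −3.78 ± 0.26, adjusted p = 2.59e-09).

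Transcripts of P-body and Argonaute proteins had a median log2 fold change of 0.02. Of 19 genes 5 were higher and 5 lower, and 35.5% and 33.7% of all genes were. The count of higher genes was 3 without MEF replicate 1, MEF replicate 2 or day 3 replicate 2, 3 with DESeq2 and 1 in the fit of all 20 libraries. Ago1 was the 1 gene past 2-fold. Ago1, a small RNA binding Argonaute, rose from 8.51 and 9.02 CPM to 21.5 and 19.7 CPM (log2 fold change 1.24 ± 0.12, adjusted p = 2.42e-07), and Ago2 fell from 83.6 and 84.3 CPM to 59.4 and 57.2 CPM (log2 fold change −0.53 ± 0.07, adjusted p = 5.62e-06). Ago3 and Ago4 are not in the list and were looked up after the other values were seen. Ago3 was lower (log2 fold change −0.94 ± 0.13, adjusted p = 7.4e-06), and Ago4 was not called (log2 fold change −0.26 ± 0.23, adjusted p = 0.333). Tnrc6a, which links Argonautes to deadenylation, fell from 139.8 and 141 CPM to 82.9 and 72 CPM (log2 fold change −0.86 ± 0.073, adjusted p = 3.46e-08). Lsm14a, the tagged P-body protein, stood at 107 and 105 CPM in the MEF libraries and 102 and 105 CPM at day 3 (log2 fold change −0.04 ± 0.064, adjusted p = 0.61), and reads of the lentiviral construct cannot be told apart from the gene's own. Nudt21, an mRNA 3′ processing factor and the target of the knockdown, stood at 62.3 and 65.2 CPM in the MEF libraries and 84.2 and 87.3 CPM at day 3 (log2 fold change 0.43 ± 0.07, adjusted p = 4.91e-05), and was not called with all 20 libraries in a single fit. In the libraries labelled Nudt21 knockdown it was 5.33 and 4.66 CPM.

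The 15 largest decreases included the Y-linked Eif2s3y, at least 852-fold lower, Ddx3y and Uty. The other 12 were Igfbp5, Lrrc15, Cnn1, Cthrc1, Coch, Has2, Aldh1l2, Bmpr1b, Unc5c, Il1rl1, Slc16a3 and Mogat2. Igfbp5, an insulin-like growth factor binding protein gene, fell from 138 and 133 CPM to 0.955 and 1.09 CPM (log2 fold change −7.05 ± 0.12, adjusted p = 1.69e-16). Lrrc15, a leucine-rich repeat gene of activated fibroblasts, fell from 214 and 188 CPM to 1.66 and 1.42 CPM (log2 fold change −7.02 ± 0.12, adjusted p = 1.85e-16). Cthrc1, a secreted collagen triple helix repeat protein, fell from 294 and 295 CPM to 2.65 and 3.75 CPM (log2 fold change −6.52 ± 0.11, adjusted p = 1.24e-16). Each of the 3 was over 100 CPM in both MEF libraries and under 4 CPM in both day 3 libraries. Has2, the hyaluronan synthase gene, fell from 374 and 341 CPM to 6.72 and 4.01 CPM (log2 fold change −6.05 ± 0.13, adjusted p = 2.59e-15). Aldh1l2, a mitochondrial folate enzyme gene, fell from 164 and 151 CPM to 1.38 and 3.53 CPM (log2 fold change −6.01 ± 0.18, adjusted p = 9.99e-14). Bmpr1b, a BMP receptor, and Unc5c, a netrin receptor, fell from 34.7 and 30.1 CPM to 0.636 and 0.437 CPM and from 31.4 and 31.3 CPM to 0.495 and 0.619 CPM. Coch, which encodes the extracellular protein cochlin, fell from 49.8 and 45.2 CPM to 0.672 and 0.546 CPM, and Mogat2, an acylglycerol transferase gene, from 27.7 and 22.9 CPM to 0.354 and 0.583 CPM.

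Markers of other cells were examined over their whole lists in the cytoplasm libraries. The 10 macrophage markers summed to 4.85 and 4.34 CPM in MEFs and 376 and 385 CPM at day 3. Nearly all of the latter was Laptm5, a lysosomal membrane gene, at 0.409 and 0.28 CPM in the MEF libraries and 370.1 and 374 CPM at day 3, while 5 of the 10, Adgre1, C1qa, C1qb, Tyrobp and Fcer1g, were under the read minimum and Ptprc, the leukocyte antigen CD45, stood at 0.102 and 0.21 CPM in the MEF libraries and 0.0354 and 0 CPM at day 3. The 8 endothelial markers summed to 11.4 and 12.7 CPM and 204 and 196 CPM, of which Tek, the angiopoietin receptor, gave 0.613 and 0.979 CPM in the MEF libraries and 198 and 188 CPM at day 3, with Pecam1 and Cdh5 under 0.25 CPM in each library. For both lists most of the day 3 sum thus came from 1 gene, with the defining markers named here near 0. The 8 muscle markers summed to 78.3 and 70.5 CPM in MEFs and 2.86 and 4.94 CPM at day 3, with 3 of 5 tested lower. The intermediate filament gene Des, which gave most of the sum, fell from 68.1 and 61.7 CPM to 2.16 and 3.61 CPM, with Myod1 and Myf5 under the read minimum. The 8 neural and glial markers summed to 173 and 160.5 CPM and 182 and 190.0 CPM, with 2 of 5 tested higher and 2 lower. Stmn2, a neuronal tubulin regulator, rose from 57.6 and 53.6 CPM to 166 and 172 CPM, and the neuronal tubulin Tubb3 fell from 90 and 85.5 CPM to 7.11 and 9.54 CPM. The part of other cell types in the changes above was not tested. The 8 erythroid markers summed to 0.347 and 0.211 CPM and 6.65 and 7.71 CPM, nearly all from the embryonic globin Hbb-y, with the adult globins under the read minimum. The 10 lung epithelial markers summed to 0.485 and 0.247 CPM and 12.7 and 13.8 CPM, nearly all from Ager at day 3 (12.2 and 13.5 CPM), with Sftpc and Scgb1a1 under the read minimum. The 10 nuclear-retained RNAs summed to 1513 and 1648 CPM and 1688 and 1660 CPM, with Malat1 at 872 and 929 CPM in the MEF libraries and 1287 and 1278 CPM at day 3 and 6 of 10 genes lower. A change in the number of cells of a type and a change in RNA per cell cannot be told apart in these libraries.

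The same contrast in sorted P-bodies gave 3375 genes higher (20.5%) and 3278 lower (19.9%) of 16499 tested. P-bodies are condensates in the cytoplasm that hold mRNAs withheld from translation. These libraries came from the same kinds of cells, with a wider spread between replicates, a standard deviation of the log2 difference of 0.236 in MEFs and 0.385 at day 3. The count of 6653 called genes was 4434 without MEF P-body replicate 1 and 4348 without MEF P-body replicate 2. Lung epithelial markers summed to 7.32 CPM in MEF P-body replicate 1 and 93.1 CPM in replicate 2. Macrophage markers summed to 7.68 and 38.2 CPM in these libraries, and endothelial markers to 14.5 and 15.2 CPM. The part of other cell types in the P-body libraries was not tested. For all 30 ranked genes the fitted change in P-bodies had the sign of that in the cytoplasm. These genes were picked for their large cytoplasm change, and P-bodies were sorted from that fraction of the same cells. The agreement is therefore no separate support, and the share over all genes is not given. In P-bodies 19 of 20 interferon response genes were higher, 0 lower, and 25 of 28 replication and mitosis genes were higher and 1 lower. Of the 23 collagen and matrix genes, 13 were lower and 2 higher, with a median log2 fold change of −0.78 in P-bodies against −1.91 in the cytoplasm. The contractile and TGF-beta response genes had 16 of 20 lower and 2 higher and a median of −1.70.

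Whether the change differed between the fractions was tested directly as the cytoplasm change minus the P-body change. Of 17488 genes tested, 14.7% were called, 9.59% with a cytoplasm change below the P-body change and 5.13% above it. Of the 23 collagen and matrix genes, 21 were called below and 0 above, and this count was 13 to 23 when single libraries were left out, the lowest without day 3 cytoplasm replicate 2. Tnc, the matrix glycoprotein tenascin C, was an example chosen after its values were seen. Its log2 fold change was −2.14 in the cytoplasm and −0.28 in P-bodies, a difference of −1.90 ± 0.27 (adjusted p = 0.00233). Fbn1, fibrillin 1, also chosen after its values were seen, gave −1.91 and −0.24, a difference of −1.70 ± 0.18 (adjusted p = 0.000814). Among the 20 contractile and TGF-beta response genes, 4 were called above and 3 below. P-bodies were sorted from this cytoplasmic fraction, whereas the fit treats the libraries as independent and pools fractions of unequal spread. Its count over all genes, 2575, was 259 without day 3 cytoplasm replicate 2, 494 without day 3 cytoplasm replicate 1, 587 and 942 without MEF cytoplasm replicates 1 and 2, 1584 and 1491 without MEF P-body replicates 1 and 2, and 4547 and 5546 without day 3 P-body replicates 1 and 2.

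**Figure D5:**
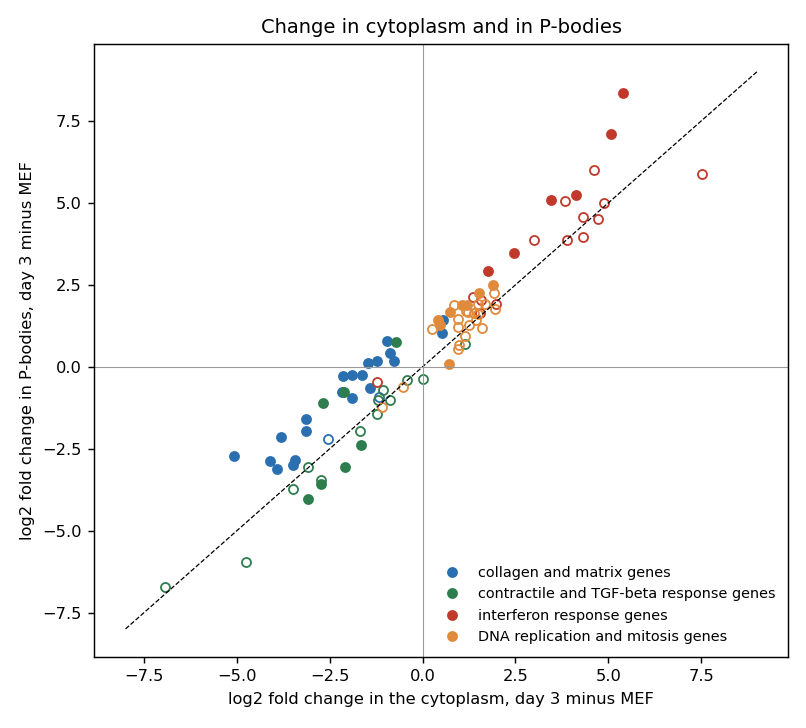
Log2 fold change of day 3 over MEF in the cytoplasm (horizontal axis) and in P-bodies (vertical axis) for tested genes of 4 lists. Filled points are genes whose changes differ between the fractions at an adjusted p under 0.05, open points are not called, and the dashed line marks equal change. Matrix genes, in blue, lie above the line in 21 filled points, with medians of −1.91 in the cytoplasm and −0.78 in P-bodies.

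Across 9627 genes with a mean of at least 10 CPM and a GENCODE transcript, the log2 fold change had a Spearman correlation of −0.224 with the length of the longest transcript and 0.257 with its GC content. Genes share libraries and are not independent replicates, so no p is given. With the median over transcripts in place of the longest, the value for length was −0.138.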

How the data were processed

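By the study's methods, RNA of the fractions was amplified with SMART-Seq v4, sequenced in read pairs, aligned to mm10 with HISAT2 and counted over refGene exons with featureCounts. The methods state the versions, which are not repeated here. The authors deposited estimated counts per gene for 20 libraries, in which 17.6% to 25.7% of the values were not whole. Strand setting and the sharing of reads between genes are not given in the sources used here, so genes with near-identical copies or overlapping partners are uncertain. The other 12 files, among them tables of the authors' own fold changes and p-values, were not used. A few listed genes enter the counts and sums but are not reported here by name.

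Counts were rounded to whole numbers, and genes with at least 10 reads over the libraries of a fit were kept. Groups were taken from sample titles. The 2 groups were compared with the quasi-likelihood test of edgeR 4.0.16 (R 4.3.3) after TMM scaling, two-sided, with Benjamini-Hochberg adjustment over all genes tested, and called under 0.05. Values after ± are the size of the log2 fold change divided by the square root of the test's F statistic, used as a standard error. Where a group had few reads they can be smaller than the counting error. Sox2, for example, had a value of 0.18 on the log2 scale beside an exact interval of 874-fold to 12393-fold. For a group without reads the fold is a bound against 3 reads over the group, and for 1 to 3 reads a ratio with an exact 95% interval, both covering counting error only. Levels outside the 4 libraries use TMM factors of all 20. The alternatives were DESeq2 1.42.0, its size factors in edgeR, filterByExpr, no filter, a replicate block, all 20 libraries in a single fit and leaving out each library. On counts simulated for this comparison over 15898 genes, 46 of 50 genes raised 2-fold and 44 of 50 lowered 2-fold were called, 38 of 50 raised and 31 of 50 lowered 1.41-fold, and 12 of 15698 unchanged genes. The simulation took its dispersion from these libraries and changed few genes, equally in both directions and only above a minimum level. These shares need not hold for the data, where 69.3% of the genes were called.

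Named genes were the 15 with the largest log2 fold change per direction (called, mean of at least 10 CPM, groups apart), 14 defining genes and, in each of 24 lists, the called members with the largest changes, and others named in a list were chosen after their values were seen. The comparison, the lists and the rule were chosen with earlier results of these data known. Deviations of same-numbered libraries correlated at 0.039 between the cytoplasm groups, 0.044 between the P-body groups, and, between the fractions, −0.0084 in MEFs and 0.16 at day 3. The numbers were not treated as pairs.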

Additional observations from a re-analysis of the deposited data

Results flagged for a closer look

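For 9 of 42 ranked or defining genes, the change from MEF to day 3 differed between cytoplasm and P-bodies by a test of the difference itself. The value given is the cytoplasm log2 change minus the P-body log2 change. Those of the 9 that were called lower in the cytoplasm had a smaller fitted fall in P-bodies. For 2 of them P-body reads were few. Igfbp5 stood at 4.71 and 4.83 CPM in MEF P-bodies and had 8 and 10 reads in day 3 P-bodies. Lrrc15 stood at 20.8 and 13.2 CPM in MEF P-bodies and had 20 and 40 reads in day 3 P-bodies. The difference was −3.43 ± 0.41 (adjusted p = 0.0012) for Igfbp5, −3.32 ± 0.52 (adjusted p = 0.004) for Lrrc15 and −0.84 ± 0.15 (adjusted p = 0.00617) for Col1a1. Has2, at −1.15 ± 0.32 (adjusted p = 0.0378), and Aldh1l2, at −2.65 ± 0.44 (adjusted p = 0.0049), went the same way. Il1rl1 gave −1.82 ± 0.26 (adjusted p = 0.00254). The rise was larger in the cytoplasm for Klf4, at 1.88 ± 0.22 (adjusted p = 0.00103), and Pitpnm3, at 3.37 ± 0.84 (adjusted p = 0.0243), a gene with 2 reads over both MEF cytoplasm libraries. Lsm14a, −0.04 in the cytoplasm and 0.96 in P-bodies on the log2 scale, differed by −1.04 ± 0.16 (adjusted p = 0.00335).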

How the results depend on the processing

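The cytoplasm counts of 11157 called genes, 5724 higher and 5433 lower, stayed within 1.5 times under the other tests, scalings, filters and fits and without each library. Without single libraries they were 10285 to 10326 called, 5183 to 5282 higher and 5029 to 5122 lower. The lowest of these counts were 8877, 4302 and 4575 in the fit of all 20 libraries. With a change of at least 2-fold, 5173 were called, 2461 higher and 2712 lower. Same-numbered libraries were not paired, and the replicate block gave 10971 called genes in the cytoplasm, 6903 in P-bodies and 2774 for the difference between fractions.

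For P-bodies, leaving out a library gave 4348 to 7199 called, 2213 to 3632 higher and 2076 to 3757 lower, and the fit of all 20 libraries gave 5173 lower. For the difference between fractions it gave 259 to 5546 called, 92 to 2479 with the cytoplasm change above and 167 to 3124 below. Those above were 1392 with DESeq2, 1430 without a filter and 1545 with all 20 libraries. The correlation with length was −0.138 over median transcripts, and −0.236 to −0.211 with single libraries left out.

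Nanog reversed to 0.04 without day 3 cytoplasm replicate 1 and Cdkn2a to −0.05 without day 3 cytoplasm replicate 2, both uncalled, and called when the other library was left out (Nanog −2.84, Cdkn2a 1.01). Of 1514 values of named genes under alternatives, 24 lost the call, in Nudt21, Socs3, Fosb, Lin28b, Tfcp2l1, Dcp1b, Gfap, Cyp2f2 and Snhg11. The cause was not tested. Depth limits what can be said of the genes under 10 reads. Where a library was left out, the lone library of its group was assumed to vary like the other group.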
